A study of Arabidopsis thaliana with 2 samples.

Results

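The ATG8 genes encode small ubiquitin-like proteins of autophagy, the pathway by which plant cells enclose cytoplasm in a double membrane and deliver it to the vacuole. ATG8 is trimmed at its end by the protease ATG4, activated by ATG7, passed to the conjugating enzyme ATG3 and joined by it to the membrane lipid phosphatidylethanolamine. The lipid-bound protein takes part in growth of the membrane and in the choice of cargo. Arabidopsis has a family of ATG8 paralogs, and autophagy in this plant is known for recycling nutrients during starvation and senescence.

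The genes described here were chosen by annotation, as all probe sets whose single annotated gene was an ATG8 gene or ATG3. This gave 10 genes, 9 of the ATG8 family and ATG3, out of 13356 genes named on the array, and each was measured by 1 probe set. The array's table writes ATG8A as APG8A and ATG8I as APG8H, and the reference gene table lists ATG8A and ATG8I as synonyms of those symbols, so the newer names are used. The family was singled out after its values on these arrays had been seen, so every value below is a description and none is tested.

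RNA came from axillary buds elongated to about 2 mm of 2 auxin-resistant Arabidopsis thaliana lines, axr1-12 and axr3-1, both induced by the mutagen EMS in the Col-0 background, with 1 array per line. The axr1-12 allele impairs AXR1, which helps to activate RUB, a relative of ubiquitin that auxin signalling needs, and axr3-1 is a gain-of-function allele of AXR3, an Aux/IAA repressor of auxin responses. All plants grew on compost treated with the insecticide Intercept at 21 °C in days of 16 h light and nights of 8 h, following 3 days of cold on the soil. The series is framed as dormant against active axillary meristems, but the labels do not say which line stands for which state and describe both buds alike.

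With 1 array per line there is no replicate and no error for any gene, so each difference is one between these 2 RNA samples. The median signal was 52.3 units on the axr1-12 array and 51.8 on the axr3-1 array, and log2 signals of the 11373 probe sets at or above the median level correlated at r = 0.905 (a correlation over probe sets, not over replicates). The 18 hybridisation spike probe sets, which measure added RNA, were all lower on the axr1-12 array, by a median log2 difference of -0.63. The 25S ribosomal RNA control was lower as well, with 549 units in axr1-12 and 1101 in axr3-1. The part of array differences in the values below was not tested. Of the 9 meristem and bud markers listed, 2 had a named probe set: LAS gave 61.8 units in axr1-12 and 69.8 in axr3-1, and CLV3 gave 2.74 units in axr1-12 and 7.29 in axr3-1, under the 29.4 units that the brightest of 27 dim bacterial controls reached.

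All 10 genes had a higher signal in axr1-12 than in axr3-1 buds, and the difference was uneven within the family. ATG8B, ATG8E and ATG8A were 2.65-, 2.49- and 1.95-fold higher, ATG8G was 1.42-fold higher, and the other 6 genes, ATG3 among them, were between 1.12- and 1.25-fold higher. The median log2 difference of the 10 was 0.32, a fold of 1.25, against a median that the scaling sets to 0 over all probe sets past the signal filter, which were the brighter part of the array. Folds are ratios of the signals after removal of the median ratio between the arrays and lie about 1.46% below the ratio of the deposited units. All 10 genes passed the filter and lay above the dim controls on both arrays. Since a whole bud was extracted, more RNA per cell and more cells of a type rich in it cannot be told apart.

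**Figure D1:**
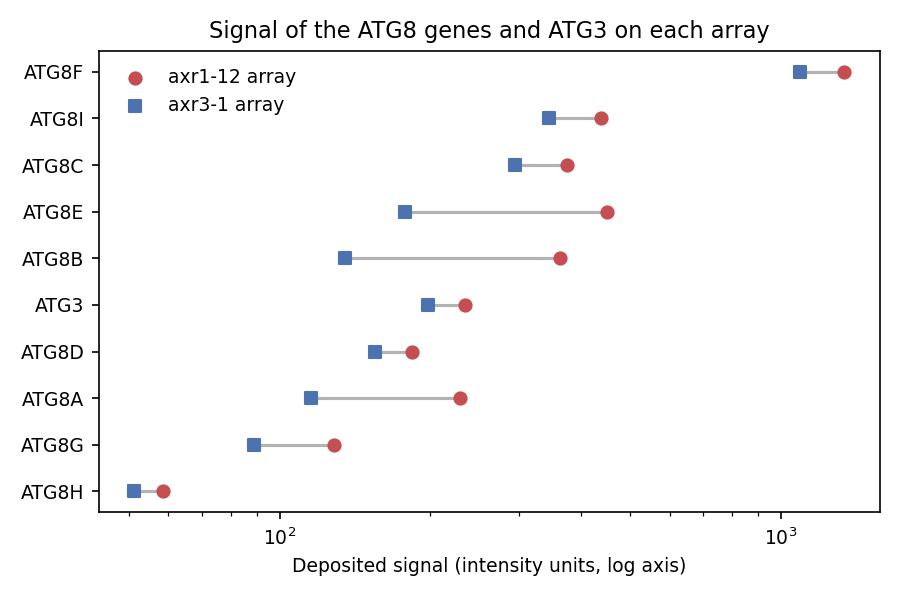
Deposited signal of each gene (intensity units, log axis) on the axr1-12 array (circles) and the axr3-1 array (squares), 1 array per line, ordered by mean signal. The circle lies right of the square for all 10 genes, with the widest gaps for ATG8B, ATG8E and ATG8A, and ATG8F is the brightest on both arrays at 1339 units in axr1-12 and 1092 in axr3-1.

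The ATG8 paralogs fall by sequence into a set of ATG8A to ATG8D, a set of ATG8E to ATG8G, and the more distant pair ATG8H and ATG8I, whose proteins end at the glycine that is joined to lipid and so do not need trimming by ATG4. In the first set ATG8B had 363 units in axr1-12 buds, against 135 units in axr3-1 buds, the largest fold among the 10 genes. ATG8A had 229 units in axr1-12 buds and 116 units in axr3-1 buds. In both genes the fold was larger than in the other members of this set.

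ATG8C had 375 units in axr1-12 buds and 295 units in axr3-1 buds, a 1.25-fold difference. ATG8D had 184 units in axr1-12 buds, against 155 units in axr3-1 buds, and was 1.17-fold higher. The first set therefore split into a pair with a difference near or above 2-fold, ATG8A and ATG8B, and a pair with a small one. The log2 difference of ATG8B exceeded that of ATG8C by 1.08.

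In the second set ATG8E had 449 units in axr1-12 buds and 178 units in axr3-1 buds, the largest gap in units of the 10 genes, 272 units. ATG8F, the brightest gene of the family, had 1339 units in axr1-12 buds, against 1092 in axr3-1 buds, a gap of 246 units but a fold of only 1.21. ATG8G had 128 units in axr1-12 buds, against 88.9 units in axr3-1 buds. The set was uneven as well, with the log2 difference of ATG8E 1.05 above that of ATG8F.

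ATG8H was the dimmest gene, with 58.4 units in axr1-12 buds and 51.3 in axr3-1 buds, close to the median of each array. ATG8I had 437 units in axr1-12 buds, against 345 units in axr3-1 buds. Both members of this pair were less than 1.5-fold higher, at 1.12 and 1.25. ATG3, the conjugating enzyme, had 234 units in axr1-12 buds and 197 units in axr3-1 buds, a 1.17-fold difference like those of ATG8D and ATG8F.

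How far 2 probe sets of the same gene disagree gives a partial yardstick for these values, which covers differences among probes and not among plants or hybridisations. Over 32 other genes with 2 probe sets past the filter, the log2 differences of a pair disagreed by a root mean square of 0.37, or 1.30-fold. ATG8B, ATG8E, ATG8A and ATG8G lay above 0.37, at 1.40, 1.32, 0.97 and 0.51, and the other 6 genes, from 0.17 for ATG8H to 0.32 for ATG8C, lay within it, so the direction of each of these 6 alone is not interpreted. Of the 45 pairs among the 10 genes, 22 differed from each other by more than 0.37, and each of these pairs included ATG8B, ATG8E or ATG8A. The share of such pairs among all probe sets was not computed, so the count does not show the family to be unusually uneven. ATG8F depended on the scaling, with log2 differences of 0.54 after quantile and 0.47 after loess scaling in place of 0.27.

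**Figure D2:**
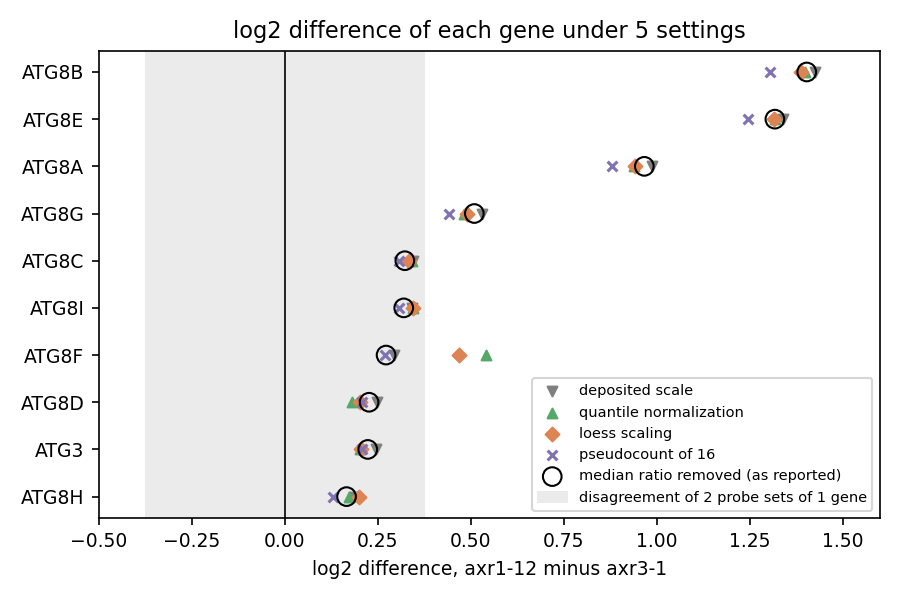
The log2 difference of each gene, axr1-12 minus axr3-1, with the median ratio removed (open circles) and under 4 other settings (small markers); the grey band is the disagreement of 0.37 in either direction between 2 probe sets of a gene. All markers lie right of 0, ATG8B, ATG8E, ATG8A and ATG8G lie outside the band under each setting shown, and ATG8F leaves the band only under quantile and loess scaling.

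The counts were set beside those of all 11373 probe sets past the filter. Of these probe sets, 50.0% were higher in axr1-12, against 10 of the 10 genes. At least 1.5-fold higher in axr1-12 were 9.93% of the probe sets and 3 of the 10 genes, and at least 2-fold higher were 3.10% of the probe sets and 2 of the 10 genes. At least 1.5-fold lower were 11.5% and at least 2-fold lower 3.28% of the probe sets, and 0 of the genes in either case. Over the 6009 of these probe sets with 1 named gene the shares were 48.3% higher, 8.42% at least 1.5-fold higher and 2.28% at least 2-fold higher. Above the yardstick of 0.37 in the same direction lay 19.5% of the probe sets and 4 of the genes. Since the family was chosen with these values known, the counts are no evidence that it stands out.

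Among all probe sets past the filter, 137 had a larger log2 difference than ATG8B, or 1.20% of them. For ATG8E the number was 171 and for ATG8A it was 379, or 3.33%. These 3 genes thus lay in the upper tail of the comparison, whereas ATG8H, with 35.0% of probe sets above it, and ATG3, with 30.2%, lay inside its bulk. Among the 144 probe sets within 0.25 log2 units of the mean signal of ATG8F, where the median log2 difference was -0.17, 10.4% lay above ATG8F, against 26.5% of all probe sets past the filter. For ATG8B and ATG8E the shares within such windows were 1.23% and 0.97%, close to those over all signals.

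**Figure D3:**
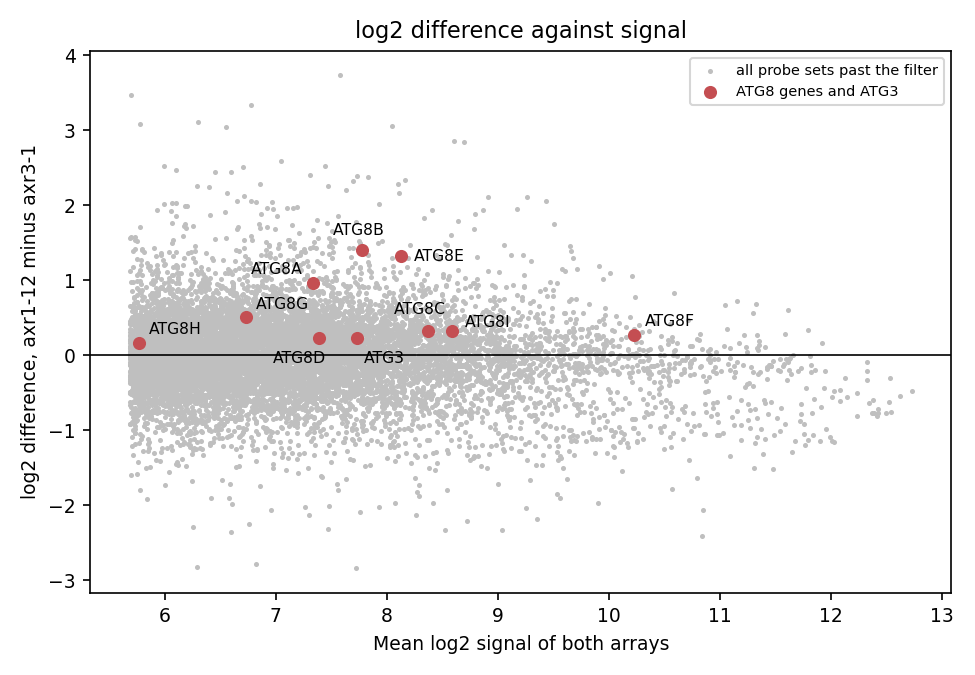
The log2 difference, axr1-12 minus axr3-1, against the mean log2 signal of both arrays for the 11373 probe sets past the filter (grey) with the ATG8 genes and ATG3 in red. ATG8B, ATG8E and ATG8A lie in the upper part of the cloud, and ATG8F lies at a signal where the cloud is centred below 0.

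Ranked by the mean log2 signal of both arrays, the order was ATG8F, ATG8I, ATG8C, ATG8E, ATG8B, ATG3, ATG8D, ATG8A, ATG8G and ATG8H. The brightest gave 22.9 times the signal of the dimmest in axr1-12 and 21.3 times in axr3-1. This is an order of signals and not of transcript amounts, since each probe set responds with its own strength. The mean log2 signals of 2 probe sets of the same gene differed by a root mean square of 1.05, or 2.07-fold, over the same 32 genes, and 8 of the 9 steps between neighbours in the order were smaller than that. The exception was the step of 1.64 from ATG8F down to ATG8I.

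The rank of 3 genes, ATG8F, ATG8G and ATG8H, was the same on both arrays. ATG8E ranked 2nd in axr1-12 and 5th in axr3-1, and ATG8B ranked 5th in axr1-12 and 7th in axr3-1. ATG8A ranked 7th in axr1-12 and 8th in axr3-1. ATG3 ranked 6th in axr1-12 and 4th in axr3-1. ATG8E, with 94.8% of the array's probe sets below it in axr1-12 and 83.1% in axr3-1, and ATG8B, with 92.9% in axr1-12 and 76.6% in axr3-1, moved up against the whole array as well. So did ATG8A, with 87.2% in axr1-12 and 72.5% in axr3-1, and ATG8G, with 74.3% in axr1-12 and 65.0% in axr3-1. ATG8F was brighter than 98.9% of probe sets in axr1-12 and than 98.2% in axr3-1. The paralogs are close in sequence, probe sequences were not used here, and how far each probe set also responds to other ATG8 transcripts was not tested.

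Of 39 further genes listed for the autophagy machinery, 11 had a named probe set and 9 of those passed the filter. All 9 had a higher signal in axr1-12, against 50.0% of all probe sets past the filter, with a median log2 difference of 0.10. Of the 9, 8 lay within the yardstick of 0.37, so the direction of each of these alone is not interpreted. ATG101, a subunit of the kinase complex that starts autophagy and the only one of the 11 that the name tables label as an autophagy gene, had 169 units in axr1-12 and 157 units in axr3-1. The other 10 are known here by locus only. AT2G37840 was the exception to the small differences, with 173 units in axr1-12 buds and 102 in axr3-1 buds, a 1.67-fold difference. Its second, dimmer probe set, which did not pass the filter, had 54.6 units in axr1-12 and 35.4 in axr3-1, a 1.52-fold difference. Among the other 7 loci past the filter, the brightest were AT3G61960, with 216 units in axr1-12 and 202 in axr3-1, and AT2G32760, with 140 units in axr1-12 and 133 in axr3-1. AT3G59950, AT4G34660 and AT3G53930 were 1.15-, 1.04- and 1.07-fold higher in axr1-12, and AT5G50230 had 131 units in axr1-12 and 117 in axr3-1. AT1G77890 was 1.25-fold higher by the probe set past the filter, with 67.5 units in axr1-12 and 53.3 in axr3-1, while its second probe set, below the dim controls, had 11.4 units in axr1-12 and 17.5 in axr3-1. ATG3 and the ATG8 genes other than ATG8B, ATG8E and ATG8A were therefore within the 1.04- to 1.67-fold range of these loci. The top of that range is AT2G37840 alone. The other loci past the filter reached at most 1.25-fold, below the 1.42-fold of ATG8G. Levels of the membrane proteins ATG2 and ATG9, of the ATG18 genes, of ATG5 and of ATG7 are not analysed here.

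The 2 listed loci that missed the filter differed in direction. AT1G49180 had 36.2 units in axr1-12 and 56.7 in axr3-1, and AT3G18770 had 23.2 units in axr1-12 and 12.9 in axr3-1, under 29.4 units on both arrays. A tally of direction over the 9 that passed the filter thus leaves out 1 locus with a lower signal in axr1-12, besides the dim second probe set of AT1G77890.

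Autophagy is held back by the nutrient-sensing kinase TOR and promoted by the energy-sensing kinase SnRK1. Of 7 genes listed for these kinases, 2 had a named probe set. RAPTOR1, which brings substrates to TOR, had 150 units in axr1-12 buds and 94.4 units in axr3-1 buds, a 1.57-fold difference. AKINBETA1, a regulatory subunit of SnRK1, had 770 units in axr1-12 and 352 in axr3-1. Thus 1 gene of the inhibiting and 1 of the promoting kinase complex were at least 1.5-fold higher in axr1-12. Of all probe sets past the filter, 9.93% were so. These 2 genes do not stand for their complexes, and transcript levels of the kinases TOR, KIN10 and KIN11 are not analysed here.

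**Figure D4:**
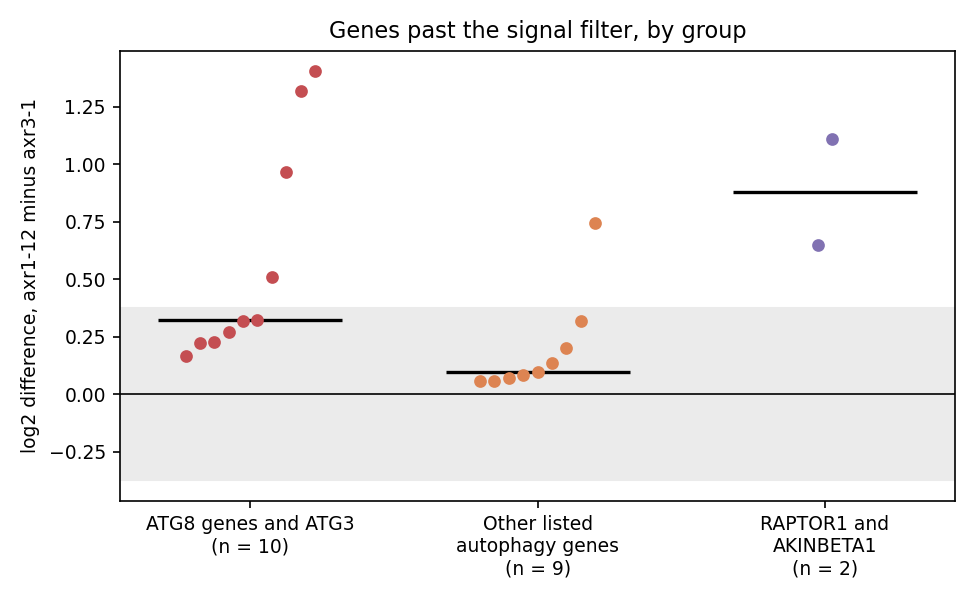
The log2 difference, axr1-12 minus axr3-1, of each gene past the signal filter in 3 groups, with the group median as a bar and the disagreement of 0.37 between probe sets of a gene as a grey band. The medians are 0.32 for the 10 ATG8 genes and ATG3, 0.10 for 9 other listed autophagy genes, and 0.88 for RAPTOR1 and AKINBETA1.

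Since ATG8 transcripts are known to increase in senescing and starved leaves, markers of such tissue are given beside the family. Of 6 senescing leaf markers, 2 had a named probe set, and their summed signal was 84.2 units in axr1-12 and 45.4 in axr3-1. The higher sum came from WRKY53 alone, as SAG101 went the other way. WRKY53, a regulator of leaf senescence, had 65.4 units in axr1-12 and 21.8 in axr3-1, the second value below the dim controls, and SAG101 had 18.9 units in axr1-12 and 23.6 in axr3-1, both below them. Of 5 mature leaf markers, RCA and LHCB4.1 had named probe sets, with a summed signal of 4742 units in axr1-12 and 8147 in axr3-1. LHCB4.1 made up most of that gap, with 2620 units in axr1-12 and 5706 in axr3-1, whereas RCA, with 2122 units in axr1-12 and 2441 in axr3-1, lay within the yardstick of 0.37. Of 6 xylem markers only IRX10 had one, with 90.1 units in axr1-12 and 105 in axr3-1, and of 7 flower markers only AMS, with 66.5 units in axr1-12 and 46.8 in axr3-1. No phloem or root marker and none of the 7 listed starvation and dormancy genes had a named probe set. The part of tissue make-up in the ATG8 differences was not tested.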

How the data were processed

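Each array's deposited column gives a linear intensity for every probe set. Per the submitters' processing notes the authors used MAS5, with no version given. The mean after trimming 2% at each end was 100.0 on both arrays. Of 22810 probe sets, 64 controls were left out. Names came from the platform's annotation and the TAIR10.1 gene table, which gave 13513 probe sets 1 gene, 503 several and left 8730 unlisted. Of genome positions only the order of neighbouring genes in that table was used, and no sequences were used.

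Intensities of axr1-12 were scaled down by the median ratio of the probe sets past the filter (log2 shift 0.021). A floor of 15.4 units, the 25th percentile over both arrays together, was applied before log2. The filter kept the 11373 probe sets with a mean log2 signal at or above the median. Python 3.11.15, numpy 2.4.6, pandas 2.3.3 and statsmodels 0.14.6 (loess, span 0.3) were used. The procedure was tested on simulated data only with planted changes larger than any fold of the 10 genes, in bright probe sets. That check therefore does not bear on differences of the size reported here. With 1 array per line no test was possible, and the number of arrays limits the precision.

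Members, gene lists and thresholds were chosen with earlier results of these data known. All members were named, and of the listed genes those with a probe set past the filter. WRKY53, SAG101, CLV3, AT1G49180 and AT3G18770, which are below it, and the neighbouring genes, which are on no list, were named after their values were seen. Alternatives tried were loess, quantile or no further scaling, a pseudocount of 16 or nothing in place of the floor, other filters, plain _at probe sets and the mean over probe sets.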

Additional observations from a re-analysis of the deposited data

How the results depend on the processing

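All 10 genes stayed higher in axr1-12, 3 of them at least 1.5-fold, 2 at least 2-fold and 0 at least 1.5-fold lower, on the deposited scale, after quantile or loess scaling, without a floor, with a pseudocount, without a filter and over plain _at probe sets. A filter at the 67th percentile left 9 genes, all higher. Of all probe sets kept under these settings, 38.3% (no filter) to 52.2% (deposited scale) were higher in axr1-12. At least 1.5-fold higher were 7.83% (pseudocount) to 10.6% (deposited scale). At least 1.5-fold lower were 9.29% (pseudocount) to 12.1% (filter at the 67th percentile). The family was chosen with its values known, so the steady counts are no evidence that it stands out. Averaging a gene's probe sets changes nothing, as each gene has 1. The median log2 difference of 0.32 ranged from 0.31 with a pseudocount to 0.41 after quantile scaling, and was 0.27 over the 7 genes other than ATG8B, ATG8E and ATG8A, an alternative chosen after seeing the data. All 50 gene values under the 5 alternatives of scaling and floor kept their sign and moved by less than 0.37. Part of this was fixed in advance. All genes lie above the floor of 15.4 units, so leaving it out changes no value, and the deposited scale moves every gene by the same 0.021. A filter cannot change the value of a gene it keeps, and all 10 probe sets are plain _at ones. Only quantile scaling, loess scaling and the pseudocount could thus move the genes unequally. The order by mean signal gave the position of 5 genes on the axr1-12 array alone and of 6 on the axr3-1 array alone, and of all 10 after quantile scaling. No paired analysis was possible because each line has 1 array.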

Other observations

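No pair of the 10 genes are neighbours on a chromosome, the closest 2 being separated by 609 protein-coding genes in the TAIR10.1 order. Of the 20 protein-coding genes next to them, 8 had a named probe set and 5 of these passed the filter. AT2G45180, beside ATG8E, had 1918 units in axr1-12 and 1779 in axr3-1, and AT4G04630, beside ATG8B, had 91.2 units in axr1-12 and 93.3 in axr3-1. For ATG8A no neighbour had a named probe set. The neighbours of ATG8E and ATG8B, each measured on a single side, thus differed by less than the 0.37 by which paired probe sets disagreed. Of the other 3, AT1G62030 beside ATG8C and AT3G06410 beside ATG8H were also within it, and AT5G61510, beside ATG3, was lower, at 150 units in axr1-12 against 195 in axr3-1. Among the 3 that missed the filter was AT3G15570, beside ATG8I, with the largest difference of the 8, at 26.3 units in axr1-12, under the dim controls, against 93.1 in axr3-1.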
